A study of Mus musculus with 143 samples.

Results

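The genotype effect that remained in the striatum of mice given a small interfering RNA (siRNA) against Htt was measured by setting zQ175 mice against wild-type (WT) mice that had received the same siRNA. The siRNA is named HTT-10150, and the animals received it at 2 months of age and again at 6 months, with striatal tissue taken at 10 months. The comparison holds 15 libraries of the 143 in the series, 8 from zQ175 HTT-10150 animals (4 female, 4 male) and 7 from WT HTT-10150 animals (2 female, 5 male), chosen by their labelled group. zQ175 mice model Huntington's disease through a knock-in: the CAG repeat of their endogenous Htt is expanded. Both arms carry lowered Htt, the WT animals included, so WT HTT-10150 is not an untouched striatum. Animals of the same age and schedule that received a non-targeting siRNA (NTC; 8 zQ175 and 8 WT) or nothing (8 zQ175 and 8 WT) gave the genotype effect without an siRNA against Htt. The labels number the libraries within sex and group and do not state what a replicate is, so p-values measure the spread between these libraries. The sources used here give neither the route of delivery, nor the amount of siRNA, nor the sequence of HTT-10150.

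Huntington's disease follows from an expanded CAG repeat in the gene for huntingtin, and the medium spiny neurons of the striatum, the inhibitory projection neurons that make up most of that region, are affected most. These neurons form the indirect pathway, marked by the D2 dopamine receptor and enkephalin, and the direct pathway, marked by the D1 receptor, substance P and dynorphin. An siRNA is loaded into an Argonaute protein and guides it to matching mRNA, which is cut. An siRNA that matches a shared stretch of Htt can lower the mRNA of both the expanded and the normal allele.

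Total counts ran from 12.77 M to 23.02 M in zQ175 HTT-10150 libraries and from 13.11 M to 20.24 M in WT HTT-10150 libraries. The summed level of 38 medium spiny neuron genes was 13640 to 16920 CPM (counts scaled to a common library total by the TMM method) in zQ175 HTT-10150 libraries and 26140 to 28540 CPM in WT HTT-10150 libraries, so the labelled tissue carried its defining genes in both arms. Choroid plexus and ependyma genes, which mark tissue that lines the ventricles, stood apart in 3 of the 15 libraries. Their sum was 1056 CPM in zQ175 HTT-10150 replicate F1, 2684 CPM in zQ175 HTT-10150 replicate M1 and 701.9 CPM in WT HTT-10150 replicate F1, and 58.58 to 238.1 CPM in the other 12. In the control groups the sum was over 500 CPM in zQ175 NTC replicate F2 (3116 CPM), untreated zQ175 replicates F1 and M2, and untreated WT replicates F3 and M3. Leaving out the libraries high in choroid plexus genes removed these control libraries as well as the 3 above. Where that moved the count of a list or of a comparison by more than 1.5 times, the other count stands beside it.

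The difference in Htt between the genotypes was within the spread of the libraries once both had received HTT-10150. It did not pass the test in the main fit, but passed with the replicate number as a block (log2 fold change -0.15, edgeR). In replicate order F1 to F4 and M1 to M4, zQ175 HTT-10150 libraries held 101.5, 98.27, 85.67, 119.2, 110.6, 117.8, 106.5 and 119.8 CPM of Htt (ENSMUSG00000029104, chromosome 5, 34761740 to 34912534). WT HTT-10150 libraries held 102.9, 98.11, 131.8, 128.2, 131.0, 125.4 and 97.55 CPM in the order F1, F2 and M1 to M5. The groups overlapped, and 3 of the WT HTT-10150 libraries (F1, F2 and M5) lay within the range of the zQ175 HTT-10150 libraries. The means were 107.4 ± 11.97 CPM in zQ175 HTT-10150 (SD, n = 8) and 116.4 ± 16.03 CPM in WT HTT-10150 (SD, n = 7; exact two-sided permutation p = 0.256 on the log2 scale, smallest possible p = 0.000311). The log2 fold change was -0.10 ± 0.06 (SE; edgeR quasi-likelihood F test, Benjamini-Hochberg adjusted p = 0.191). With NTC the means were 137.4 ± 5.31 CPM in zQ175 and 161.5 ± 8.21 CPM in WT (SD, n = 8 each; exact permutation p = 0.000155, the smallest possible). Without treatment they were 132.6 ± 10.02 CPM in zQ175 and 163.0 ± 6.504 CPM in WT (SD, n = 8 each; exact permutation p = 0.000155). Against NTC, HTT-10150 lowered Htt by a log2 fold change of -0.36 ± 0.06 in zQ175 (adjusted p = 0.000346, edgeR) and of -0.49 ± 0.06 in WT (adjusted p = 5.01e-06, edgeR). The difference between the genotype effect on Htt under HTT-10150 and that under NTC was 0.13 ± 0.08 on the log2 scale (adjusted p = 0.571, edgeR). These values are of the mouse Htt entry and do not tell the alleles apart. A separate entry for a mutant form of Htt, with 1.04 to 4.50 counts per zQ175 HTT-10150 library, was left out of them.

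Across all genes, most of the genotype effect was still present under HTT-10150. Of 15506 genes tested, 5608 differed between zQ175 HTT-10150 and WT HTT-10150 (36.2% of the genes tested), with 2711 higher in zQ175 (17.5%) and 2897 lower (18.7%). The same test called 6526 genes between zQ175 NTC and WT NTC (42.1%) and 5483 between untreated zQ175 and WT (35.4%). The HTT-10150 pair and the NTC pair share no animal. Of the genes called in both, 4124 had the same direction and 19 the opposite direction. The 4124 genes are 73.5% of the calls under HTT-10150 and 63.2% of the calls under NTC. In all 3 pairs, 1636 genes were called higher and 1954 lower. In 1708 genes (11%) no zQ175 HTT-10150 library overlapped the WT HTT-10150 libraries, 651 with zQ175 higher and 1057 with zQ175 lower.

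The size of the effect could be read from a score made from genes called in the untreated animals, which take no part in either siRNA arm. For each library, the mean log2 CPM of the 2645 genes higher in untreated zQ175 was computed, less the same mean over the 2837 genes lower there, with Htt left out, and set to 0 at the mean of the WT NTC libraries. zQ175 HTT-10150 libraries scored 0.58 to 0.65 with a median of 0.63, and WT HTT-10150 libraries scored -0.020 to 0.056 with a median of 0.015. zQ175 NTC libraries scored 0.59 to 0.69, and WT NTC libraries -0.041 to 0.039. The zQ175 HTT-10150 libraries thus lay inside or just below the range of the zQ175 NTC libraries, and none came near the WT libraries. The distance between genotypes was 0.61 under HTT-10150, 0.65 under NTC and 0.66 without treatment. Under HTT-10150 it was 94.02% of that under NTC. The mean score of zQ175 HTT-10150 minus that of zQ175 NTC was -0.025, and that of WT HTT-10150 minus that of WT NTC was 0.014. The untreated distance is set by the animals that chose the genes. With genes called in the untreated 10-month animals of another schedule, treated at 6 months only, the distances were 0.60 under HTT-10150, 0.62 under NTC and 0.58 without treatment. The HTT-10150 distance was then 97.4% of that under NTC, and zQ175 HTT-10150 minus zQ175 NTC was 0.0021. With the first set of genes, both shifts were smaller than the SD between libraries of the groups compared, which was 0.027 to 0.036. That SD is the spread of single libraries and not the error of a difference of means, and the shifts were not tested.

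**Figure D1:**
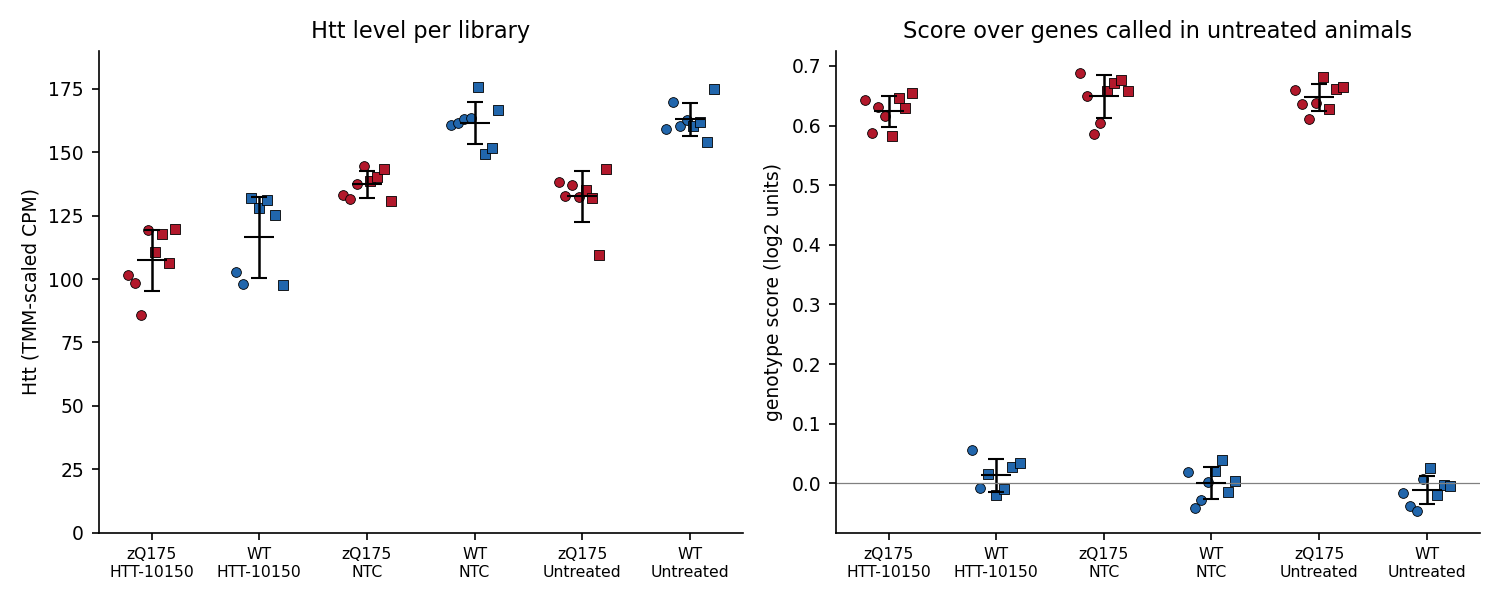
Left, Htt in TMM-scaled CPM; right, the genotype score in log2 units, for each library of the 6 groups (circles female, squares male, bar and whiskers the mean and SD; red zQ175, blue WT). Htt of the HTT-10150 groups overlaps, at means of 107.4 CPM in zQ175 and 116.4 CPM in WT, while their scores stay 0.61 apart.

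Genes called in the untreated animals had effects of like size in both siRNA pairs. Among the 67 genes with an untreated log2 fold change over 1, the median log2 fold change was 1.37 under HTT-10150 and 1.33 under NTC. Among the 140 genes with an untreated log2 fold change under -1, it was -1.26 under HTT-10150 and -1.36 under NTC. For genes with an absolute log2 fold change of 0.5 to 1, the medians were 0.60 under HTT-10150 and 0.61 under NTC for the 252 higher ones. They were -0.60 under HTT-10150 and -0.65 under NTC for the 478 lower ones. Of the genes past 1, 67 of 67 and 138 of 140 had the untreated direction under HTT-10150.

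Among called genes that averaged over 1 in log2 CPM and moved alike in both sexes, the largest falls were in genes of widely different function, and in each the groups of libraries did not overlap unless said. Gpx6 (ENSMUSG00000004341, chromosome 13, 21312125.0 to 21319624.0), a selenium-dependent glutathione peroxidase in humans and a relative of that family in mice, held 0.260, 0.592, 0.144, 0.310, 0.543, 0.469, 0.688 and 0.540 CPM in the zQ175 HTT-10150 libraries. It held 11.1, 12.1, 9.77, 11.9, 10.5, 11.03 and 7.70 CPM in the WT HTT-10150 libraries. All zQ175 HTT-10150 libraries were below 1 CPM, and the log2 fold change was -4.55 ± 0.18 (adjusted p = 1.58e-26, edgeR). Abhd11os, a noncoding transcript beside Abhd11, averaged 1.88 ± 0.479 CPM in zQ175 HTT-10150 and 13.8 ± 1.77 CPM in WT HTT-10150, a log2 fold change of -2.85 ± 0.11. The lipid-binding protein gene Sec14l3 averaged 1.31 ± 0.384 CPM in zQ175 HTT-10150 and 7.61 ± 1.45 CPM in WT HTT-10150, a log2 fold change of -2.61 ± 0.13. Slc4a11, a membrane transporter of the bicarbonate transporter family, fell by 2.63 on the log2 scale, the endopeptidase gene Phex by 2.45 and Ddit4l, an inhibitor of mTOR signalling, by 2.16. Upb1, an enzyme of pyrimidine breakdown, fell by 2.05, and Rspo1, a secreted activator of Wnt signalling, by 1.73. Below that level, Alb, the albumin gene of liver, had counts in 4 of 8 zQ175 HTT-10150 libraries and in 7 of 7 WT HTT-10150 libraries. The ratio of zQ175 to WT was 0.0578 (95% exact interval 0.0325 to 0.0961, counting error only and not the spread between libraries). Of blood and liver transcripts, 0 of 9 were called without the libraries high in choroid plexus genes, and 0 of 9 fell in males alone.

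Promoters of genes with large changes, above all those that fell most, were less often rich in CpG, the dinucleotide that gathers in CpG islands. Of 11689 tested genes with a promoter in the RefSeq table (250 bases before to 50 bases after the start, GRCm38.p6), 68.8% had an observed-to-expected CpG ratio over 0.6. Of the 87 genes called lower with a log2 fold change past -1, 29.9% did. Of the 60 called higher past 1, 55% did. For changes of 0.5 to 1 it was 54.7% of 331 genes called lower and 49.8% of 221 called higher. Where the change was under 0.5, the share was 71.7% of 1721 genes called lower and 75.4% of 1844 called higher. The windows of 5 genes follow, 5′ to 3′ on the strand of the gene with each CpG in capitals, at the start listed first in the table for each gene. Gpx6, Abhd11os and Sec14l3 were among the largest falls, Dsp had the largest rise among the genes named for size, and Onecut1 comes from the developmental transcription factors below. Slc4a11 had no entry.
Gpx6, chr13:21311953-21312252, plus strand: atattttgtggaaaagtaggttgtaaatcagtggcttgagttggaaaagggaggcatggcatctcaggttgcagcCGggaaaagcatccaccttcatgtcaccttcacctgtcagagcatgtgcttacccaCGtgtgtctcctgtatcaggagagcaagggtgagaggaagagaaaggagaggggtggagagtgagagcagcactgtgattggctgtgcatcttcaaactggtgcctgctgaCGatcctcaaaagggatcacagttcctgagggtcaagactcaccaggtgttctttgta
Abhd11os, chr5:135013108-135013407, minus strand: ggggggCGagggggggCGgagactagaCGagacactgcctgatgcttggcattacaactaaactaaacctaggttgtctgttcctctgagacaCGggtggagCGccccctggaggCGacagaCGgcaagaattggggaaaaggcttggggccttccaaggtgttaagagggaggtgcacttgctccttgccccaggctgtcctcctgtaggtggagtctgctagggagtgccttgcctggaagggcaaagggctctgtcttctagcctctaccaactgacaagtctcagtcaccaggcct
Sec14l3, chr11:4064603-4064902, plus strand: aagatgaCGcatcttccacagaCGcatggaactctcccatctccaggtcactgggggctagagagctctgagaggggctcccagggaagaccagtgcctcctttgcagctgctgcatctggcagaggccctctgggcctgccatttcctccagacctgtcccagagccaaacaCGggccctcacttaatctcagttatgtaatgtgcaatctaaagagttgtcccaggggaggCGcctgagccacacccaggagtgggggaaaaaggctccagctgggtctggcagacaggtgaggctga
Dsp, chr13:38151044-38151343, plus strand: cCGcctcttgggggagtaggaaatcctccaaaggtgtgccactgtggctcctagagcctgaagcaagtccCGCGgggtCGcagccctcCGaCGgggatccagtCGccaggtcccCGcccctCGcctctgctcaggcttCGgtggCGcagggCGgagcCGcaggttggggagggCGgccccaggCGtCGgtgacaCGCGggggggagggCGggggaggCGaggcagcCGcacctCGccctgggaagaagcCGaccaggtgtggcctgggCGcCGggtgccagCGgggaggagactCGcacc
Onecut1, chr9:74861671-74861970, plus strand: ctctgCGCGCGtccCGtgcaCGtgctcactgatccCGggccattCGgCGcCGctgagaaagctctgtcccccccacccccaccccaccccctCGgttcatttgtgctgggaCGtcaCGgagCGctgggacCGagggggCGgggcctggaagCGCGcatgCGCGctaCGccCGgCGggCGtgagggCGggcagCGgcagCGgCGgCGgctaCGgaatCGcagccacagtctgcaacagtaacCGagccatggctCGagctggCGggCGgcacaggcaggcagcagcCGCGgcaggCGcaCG
The Gpx6, Abhd11os and Sec14l3 windows held 3, 7 and 4 CpG, with observed-to-expected ratios of 0.169, 0.280 and 0.157. The Dsp and Onecut1 windows held 27 and 38 CpG, with ratios of 0.686 and 0.951. This describes the windows and says nothing of which factor acts there.

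Genes of medium spiny neuron identity remained lower almost throughout. Of 38 members tested, 35 fell and 0 rose, against 18.7% of all genes called lower, with a median log2 fold change of -0.73 (0.01 over all genes tested). This list and those below were chosen with earlier results of these data known, so their shares describe the lists and test nothing. In 34 of the 38 the groups did not overlap. Ryr1, the ryanodine receptor that releases calcium from internal stores, averaged 17.6 ± 3.65 CPM in zQ175 HTT-10150 and 95.3 ± 7.47 CPM in WT HTT-10150, a log2 fold change of -2.44 ± 0.10 (adjusted p = 1.58e-23, edgeR). Scn4b, a sodium channel subunit, ran from 402.8 to 582.7 CPM with a median of 505.8 in zQ175 HTT-10150, and from 1451 to 1751 CPM with a median of 1638 in WT HTT-10150. Pde10a, the phosphodiesterase that degrades cyclic nucleotides in these neurons, averaged 801.5 ± 87.9 CPM in zQ175 HTT-10150 and 1740 ± 88.5 CPM in WT HTT-10150. Its log2 fold change was -1.12 ± 0.06 under HTT-10150, -1.10 under NTC and -1.04 without treatment. Ppp1r1b, which encodes DARPP-32, a phosphatase inhibitor downstream of dopamine, stood at -0.87 ± 0.05, and Arpp19, a related phosphatase inhibitor, at -1.05 ± 0.04. The 3 members that did not pass were the GABA-neuron genes Slc32a1, Gad1 and Gad2, with log2 fold changes of -0.03, -0.05 and -0.06; they were chosen for mention after their values were seen. In bulk tissue, fewer cells of a type and less RNA per cell cannot be told apart.

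Indirect pathway genes fell together and direct pathway genes did so in part. Of 9 indirect pathway genes tested, 7 fell and 0 rose (77.8% called, against 36.2% of all genes), with a median log2 fold change of -0.79. Penk (ENSMUSG00000045573, chromosome 4, 4133531.0 to 4138819.0), the enkephalin precursor, held 449.2, 446.0, 407.6, 491.7, 489.2, 412.4, 497.1 and 459.7 CPM in zQ175 HTT-10150. It held 1042, 1051, 1205, 1248, 1108, 1079 and 1097 CPM in WT HTT-10150. Every WT HTT-10150 library thus stood above every zQ175 HTT-10150 library, and the log2 fold change was -1.29 ± 0.05 (adjusted p = 1.58e-26, edgeR). Adora2a, an adenosine receptor of these neurons, averaged 213.0 ± 18.9 CPM in zQ175 HTT-10150 and 432.3 ± 21.9 CPM in WT HTT-10150. Drd2, the D2 dopamine receptor, fell by 0.79 on the log2 scale and the orphan receptor gene Gpr6 by 0.91.

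Of 11 direct pathway genes, 6 fell and 1 rose (63.6% called), with a median of -0.19. Drd1, the D1 dopamine receptor, ran from 136.1 to 174.5 CPM with a median of 161.8 in zQ175 HTT-10150, and from 257.6 to 302.4 CPM with a median of 293.0 in WT HTT-10150. Chrm4, a muscarinic acetylcholine receptor, fell by 0.83 on the log2 scale, Pdyn, the dynorphin precursor, by 0.40, and Slc35d3, which takes part in D1 receptor trafficking, by 0.25. Tac1, the substance P precursor, averaged 202.6 ± 21.6 CPM in zQ175 HTT-10150 and 196.6 ± 15.2 CPM in WT HTT-10150, with a log2 fold change of 0.06 ± 0.06 that did not pass (adjusted p = 0.464, edgeR). Of 16 interneuron markers, 7 fell and 0 rose (43.8% called). Of all genes, 18.7% were called lower and 36.2% in either direction. The interneuron markers that fell are given in part. They included Kit, a receptor tyrosine kinase (-0.36 ± 0.05), and Chat, the enzyme of acetylcholine synthesis (-0.39 ± 0.07).

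**Figure D2:**
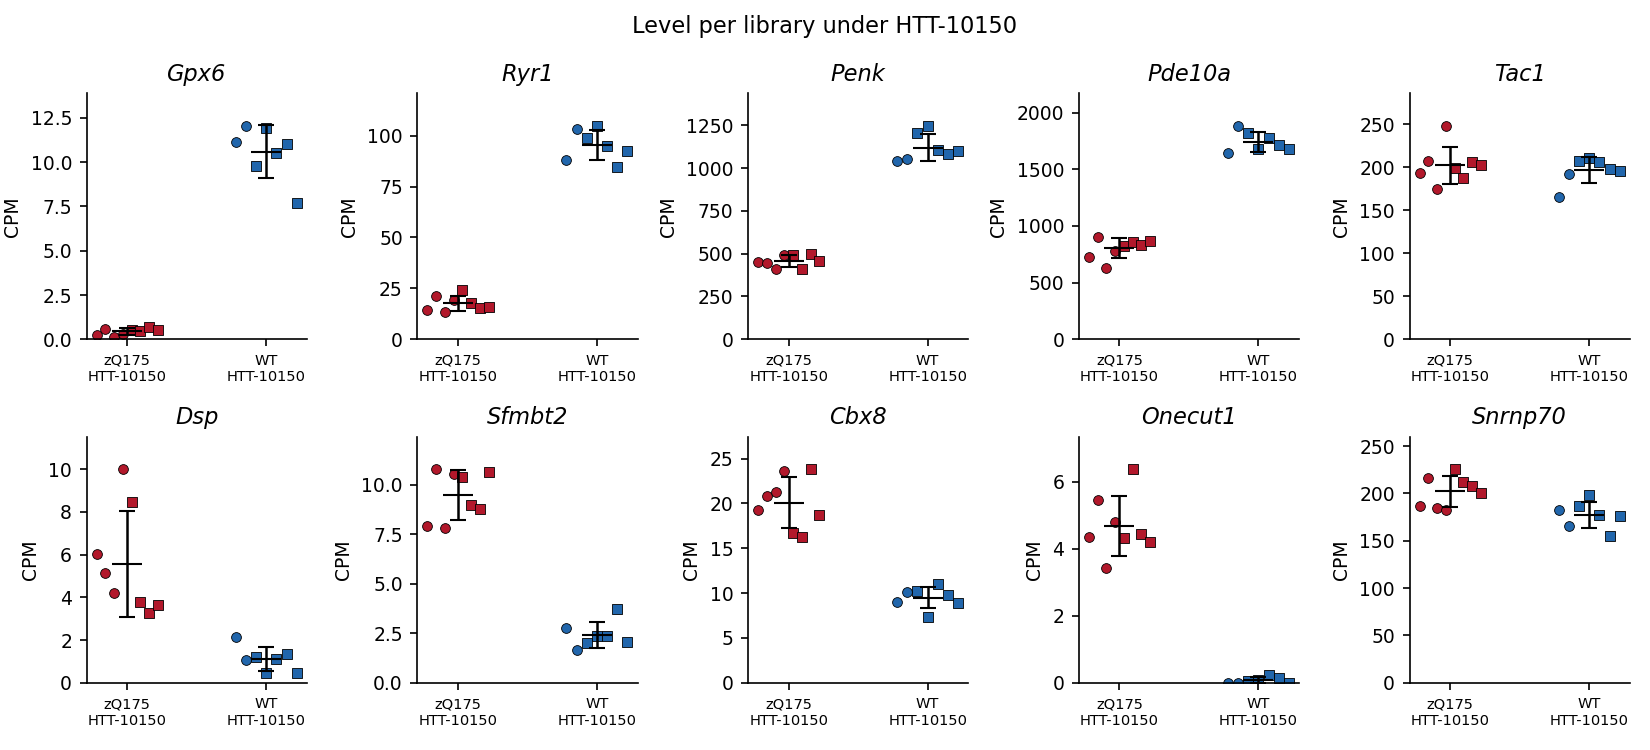
Level in CPM of 10 genes in each library under HTT-10150 (circles female, squares male, bar and whiskers mean and SD, zQ175 left and WT right, each axis from 0). Gpx6, Ryr1, Penk and Pde10a are lower in every zQ175 library than in any WT library, Dsp, Sfmbt2, Cbx8 and Onecut1 are higher in every zQ175 library, and Tac1 and Snrnp70 overlap.

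Most called genes of signalling in these neurons fell, where 18.7% of all genes were called lower and 17.5% higher. Of 23 genes of cyclic AMP and G protein signalling, 15 fell and 2 rose, among them Adcy5, the adenylyl cyclase of the striatum (-0.88 ± 0.05), Rgs14, a regulator of G protein signalling (-1.12 ± 0.05), and Pde1b, a calcium-dependent phosphodiesterase (-0.73 ± 0.04). Of 24 genes of calcium handling, 20 fell and 1 rose. They included Camk4, a calcium-dependent kinase (-0.78 ± 0.05), the inositol trisphosphate receptor gene Itpr1 (-0.75 ± 0.05) and the plasma membrane calcium pump gene Atp2b1 (-0.72 ± 0.04). Of 24 potassium channel genes, 16 fell and 1 rose, with Kcnab1 and Kcnip2, both channel subunits, at -0.68 ± 0.04 and -0.75 ± 0.05. Of 22 glutamate receptor genes, 11 fell and 2 rose (59.1% called, against 36.2% of all genes). Of 12 GABA-A receptor genes, 5 fell and 2 rose (58.3% called). The kainate receptor gene Grik2 stood at -0.88 ± 0.05 and the extrasynaptic GABA-A subunit gene Gabrd at -0.72 ± 0.04.

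Immediate early genes, which are induced by neuronal activity, were lower where they passed. Of 20 tested, 9 fell and 0 rose (45% called), with a median log2 fold change of -0.65. Of all genes, 18.7% were called lower and 36.2% in either direction. Egr2, a zinc finger transcription factor, ran from 0.890 to 9.54 CPM with a median of 3.47 in zQ175 HTT-10150, and from 6.23 to 40.1 CPM with a median of 17.1 in WT HTT-10150. The groups overlapped, and the log2 fold change was -2.31 ± 0.55 (adjusted p = 0.000854, edgeR). Homer1, a scaffold of glutamate receptors, averaged 123.9 ± 9.02 CPM in zQ175 HTT-10150 and 230.1 ± 33.7 CPM in WT HTT-10150, without overlap. Egr3 fell by 0.57 on the log2 scale. Of 10 genes of neurotrophins and their receptors, 6 fell and 0 rose (60% called). Among them were Sort1, the sorting receptor sortilin (-0.33 ± 0.03), and Ntrk2, the receptor of brain-derived neurotrophic factor (-0.21 ± 0.04).

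Among the genes that rose most, several are transcription factors of the embryo that the adult WT striatum barely transcribes. Of 15 developmental transcription factors tested (14 others of the list did not pass the filter on low counts), 11 rose and 0 fell, against 17.5% of all genes called higher. Because a gene can pass that filter through 1 group alone, the count does not speak for the whole list. The median log2 fold change was 1.18, also with the 3 genes at 0 in WT put at their bound. In males alone 7 of 12 rose, with a median of 0.44, where 1728 of all 15473 genes tested were called higher. Hoxc4 (ENSMUSG00000075394, chromosome 15, 103018934.0 to 103036852.0) held 5.46, 6.91, 4.04, 5.58, 3.47, 2.20, 2.46 and 3.33 CPM in the zQ175 HTT-10150 libraries, and 0 CPM in all 7 WT HTT-10150 libraries. Its 599 counts in zQ175 HTT-10150 against 0 counts in WT HTT-10150 make it at least 155.1-fold higher, with the floor of 3 counts taken over the group. Hoxc5, its neighbour in the HoxC cluster, had 328 counts in zQ175 HTT-10150 and 0 in WT HTT-10150, and was at least 84.9-fold higher. The reads of neighbouring and overlapping HoxC transcripts can be shared, so the split between Hoxc4 and Hoxc5 is uncertain. Onecut1, a homeobox factor of liver and neuronal development whose promoter is shown above, had 705 counts in zQ175 HTT-10150 and 7 in WT HTT-10150. Its ratio was 78.2 (95% exact interval 37.8 to 195.3, counting error only). Wt1, a zinc finger factor of the developing kidney, had 796 counts in zQ175 HTT-10150 and 16 in WT HTT-10150, a ratio of 38.6 (23.7 to 67.9).

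Polycomb group genes, whose products keep developmental genes silent through marks on histones, changed in both directions. Of 30 tested, 10 rose and 6 fell (53.3% called, against 36.2% of all genes). In males alone 6 rose and 2 fell, where 1728 of all 15473 genes tested were called higher and 2075 lower. Sfmbt2, which encodes a protein of a Polycomb complex, averaged 9.49 ± 1.26 CPM in zQ175 HTT-10150 and 2.41 ± 0.677 CPM in WT HTT-10150, a log2 fold change of 1.98 ± 0.12 (adjusted p = 1.87e-19, edgeR). Cbx8, which encodes a chromodomain subunit of a Polycomb repressive complex, stood at 1.06 ± 0.09, without overlap of the groups. Scmh1, another Polycomb protein gene, averaged 51.5 ± 2.28 CPM in zQ175 HTT-10150 and 60.3 ± 4.76 CPM in WT HTT-10150, a log2 fold change of -0.23 ± 0.05. Of 21 genes of the protocadherin beta cluster, neuronal adhesion proteins chosen in combinations by single cells, 14 rose and 2 fell (76.2% called). Pcdhb3 and Pcdhb9 stood at 0.92 ± 0.10 and 0.69 ± 0.06. These genes are close copies of each other, so their counts may be split between them with error.

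Other genes with large rises came from several classes. Dsp (ENSMUSG00000054889, chromosome 13, 38151294.0 to 38198577.0), the desmosomal linker desmoplakin, ran from 3.24 to 10.0 CPM with a median of 4.66 in zQ175 HTT-10150, and from 0.473 to 2.15 CPM with a median of 1.09 in WT HTT-10150. Its log2 fold change was 2.19 ± 0.32 (adjusted p = 5.48e-07, edgeR). Kazald1, a secreted protein of the insulin-like growth factor binding protein family, stood at 1.93 ± 0.15, and Vwa5b2, a gene with a von Willebrand factor domain, at 1.49 ± 0.10. Emx2os, a transcript antisense to the homeobox gene Emx2, stood at 1.57 ± 0.13, and Tnnt2, the cardiac troponin T gene, at 1.23 ± 0.11. The sources used here do not say whether counting used strand, so reads of Emx2os and Emx2 may not be told apart. Nrn1, which encodes neuritin, averaged 23.2 ± 7.51 CPM in zQ175 HTT-10150 and 6.45 ± 4.63 CPM in WT HTT-10150, with overlap, and a log2 fold change of 1.74 ± 0.32. Nrn1 is also among the 14 excitatory neuron markers, whose summed level had a median of 294.6 CPM in zQ175 HTT-10150 (217.5 to 508.2) and of 249.7 CPM in WT HTT-10150 (highest 393.2). Of these markers 3 rose and 0 fell (21.4% called, against 36.2% of all genes), the others being Cux2 (0.49 ± 0.12) and Lamp5. The part of such cells in the result for Nrn1 was not tested.

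Most astrocyte genes and a part of the oligodendrocyte genes fell, where 18.7% of all genes were called lower. Of 16 astrocyte genes, 14 fell and 1 rose (9 fell and 1 rose in males alone), among them Slc1a2, the main glutamate transporter, which averaged 1831 ± 63.1 CPM in zQ175 HTT-10150 and 2532 ± 169.9 CPM in WT HTT-10150 without overlap. Glul, glutamine synthetase, fell by 0.41 on the log2 scale. Of 10 genes of reactive astrocytes, 3 rose and 1 fell (40% called, near the 36.2% of all genes). Serpina3n, a secreted protease inhibitor, stood at 0.93 ± 0.19. Gfap, the intermediate filament of astrocytes, averaged 186.5 ± 52.4 CPM in zQ175 HTT-10150 and 148.7 ± 44.2 CPM in WT HTT-10150, and did not pass (log2 fold change 0.29 ± 0.19, adjusted p = 0.244, edgeR). Of 15 oligodendrocyte genes, 9 fell and 0 rose, with the myelin genes Mobp and Mal at -0.59 ± 0.11 and -0.53 ± 0.09. Of 16 endothelial and mural cell genes, 11 fell and 0 rose, and Pdgfrb, the pericyte receptor, stood at -0.30 ± 0.06. In males alone 2 of these 16 fell, while 3803 of all 15473 genes tested were called there, 1728 higher and 2075 lower.

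Microglia gave small differences. Of 13 genes of homeostatic microglia, 6 fell and 0 rose (46.2% called, against 18.7% of all genes called lower and 36.2% in either direction). They included the fractalkine receptor gene Cx3cr1 (-0.20 ± 0.04) and the colony-stimulating factor receptor gene Csf1r (-0.17 ± 0.04). Under NTC 0 of these 13 fell and 1 rose, but no member was called in the difference between the pairs (adjusted p = 0.175 for Cx3cr1 and 0.193 for Csf1r, edgeR). Without the libraries high in choroid plexus genes, 2 of the 13 fell, and 8 did once the fit held slopes of length and GC (defined with the difference between the pairs). In males alone 0 of the 13 were called, where 2075 of all 15473 genes tested were called lower. Aif1, a marker of all microglia, did not pass (-0.18 ± 0.12). Of 15 genes of disease-associated microglia, 4 rose and 1 fell (33.3%, near the 36.2% of all genes), and 2 rose and 4 fell with the slopes in the fit. Cst7 and Clec7a, a protease inhibitor and a pattern receptor, stood at 0.94 ± 0.29 and 0.93 ± 0.25 under HTT-10150, at low levels and with overlapping groups. Under NTC they stood at 2.14 and 1.32, and neither was called in the difference between the pairs (adjusted p = 0.211 and 0.732, edgeR).

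Few interferon response genes were called. Of 23 tested, 1 rose and 0 fell (4.35%). It was 2 rose without the libraries high in choroid plexus genes, and 3 rose in males alone and with the slopes in the fit. Under NTC 8 rose and 0 fell, and without treatment 7 rose and 0 fell. None of the 23 was called in the difference between the pairs, so the lower count under HTT-10150 is not shown to be a difference. Respiratory chain genes (3 rose and 1 fell of 29), choroid plexus genes (0 of 11), meningeal genes (0 of 10), blood and liver transcripts (0 rose and 1 fell of 8) and complement genes (0 rose and 2 fell of 12) were below the share of all genes. Without the libraries high in choroid plexus genes, 3 choroid plexus genes rose, 1 meningeal gene and 1 complement gene fell, and 0 blood and liver transcripts were called. In males alone 2 choroid plexus genes, 1 meningeal gene and 1 blood or liver transcript rose, and 1 complement gene fell. With the slopes in the fit 4 complement genes fell.

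Further lists had calls in both directions, and those of cholesterol synthesis, heat shock and small RNA machinery were at or below the 36.2% of all genes called. Of 20 genes of cholesterol synthesis and turnover, 2 rose and 4 fell (30% called), among them Cyp46a1, the enzyme that makes 24-hydroxycholesterol in neurons (-0.41 ± 0.04), and the sterol oxidase gene Msmo1 (-0.23 ± 0.05). Of 21 heat shock and chaperone genes, 5 rose and 2 fell (33.3%, with 0 rising and 1 falling in males alone), and the chaperone gene Hspa8 stood at 0.28 ± 0.06. Of 9 genes of oligodendrocyte precursors, 2 rose and 2 fell (44.4%). Of 15 genes of the small RNA machinery, which an siRNA uses, 2 rose and 3 fell (33.3%, and 5 rose and 3 fell with the slopes in the fit), and the Argonaute gene Ago4 averaged 20.3 ± 1.88 CPM in zQ175 HTT-10150 and 35.03 ± 2.53 CPM in WT HTT-10150. Its log2 fold change was -0.79 ± 0.07 under HTT-10150, -0.84 under NTC and -0.70 without treatment. Of 14 genes of mismatch repair and repeat instability, 6 rose and 1 fell (50%, with 1 rising and 1 falling in males alone). The DNA ligase gene Lig1 stood at 0.27 ± 0.07 and the mismatch repair gene Mlh3 at 0.15 ± 0.04. Of 14 huntingtin partners, Htt included, 3 rose and 4 fell (50%, with 2 rising and 2 falling in males alone). In males alone 1728 of all 15473 genes tested were called higher and 2075 lower.

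**Figure D3:**
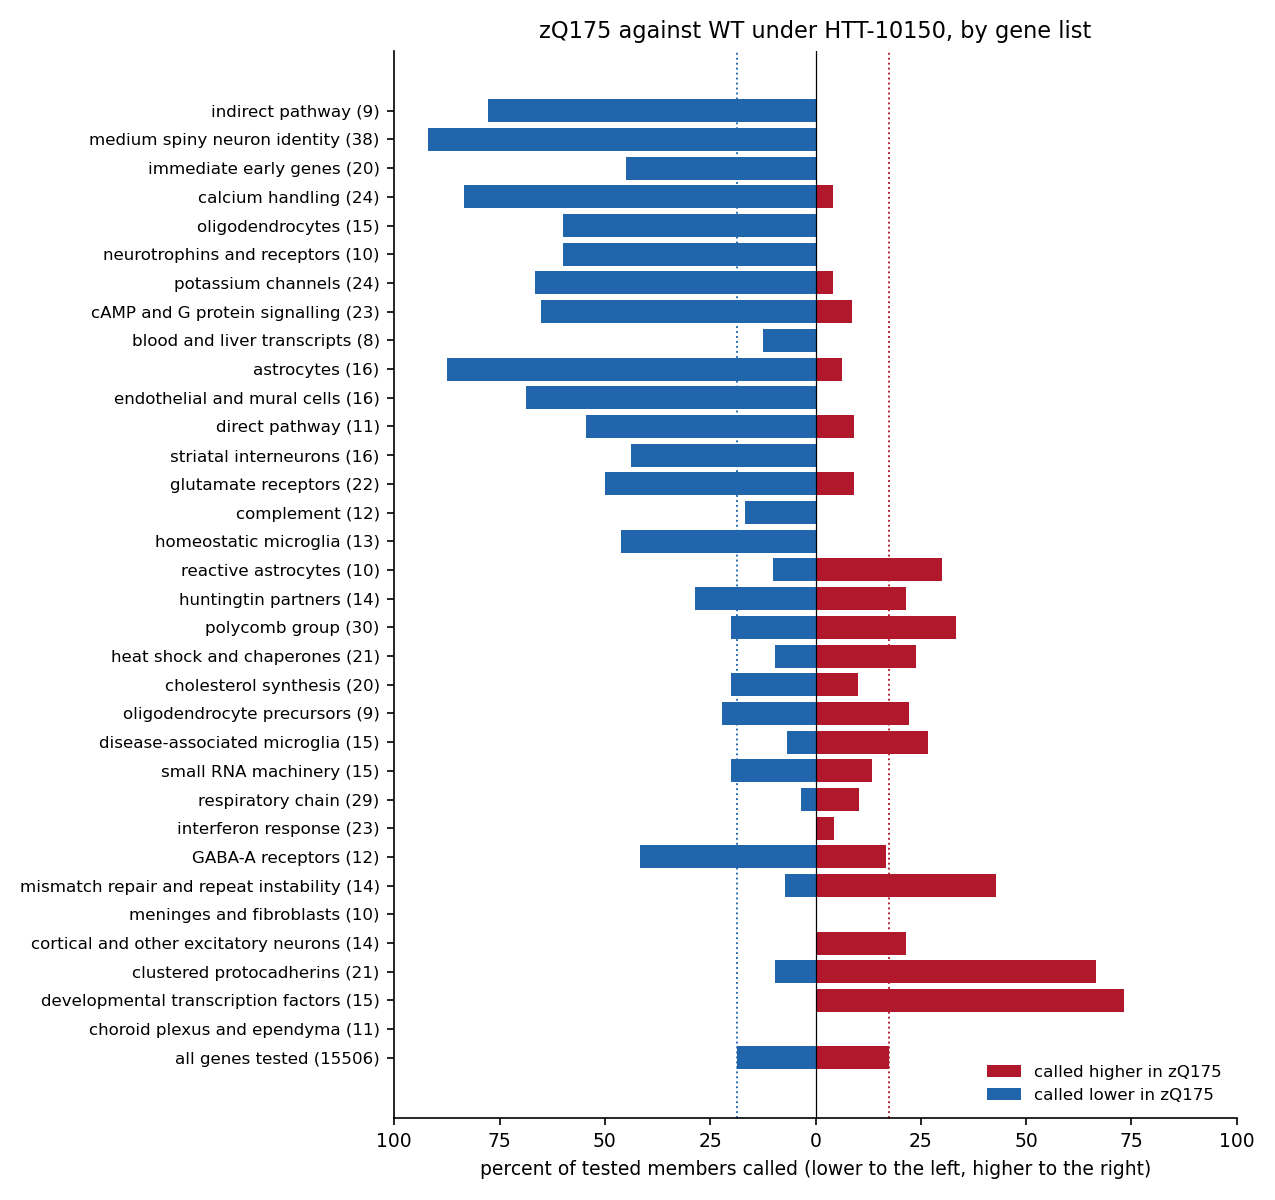
Percent of the tested members of each of 33 gene lists called higher (red, to the right) or lower (blue, to the left) in zQ175 HTT-10150 against WT HTT-10150, with the number tested in brackets, ordered by median log2 fold change; dotted lines mark all genes tested (17.5% higher, 18.7% lower). Medium spiny neuron, indirect pathway, calcium and astrocyte lists lie far to the left, developmental transcription factors and clustered protocadherins to the right.

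A gene-by-gene test of the difference between the genotype effect under HTT-10150 and that under NTC called 82 of 15506 genes (0.529%), 36 higher under HTT-10150 and 46 lower. In 58 of the 82 the effects in the pairs had opposite signs, and in 45 the effect under HTT-10150 was nearer to 0. In 81 the untreated effect lay between the NTC and HTT-10150 effects. Against NTC, HTT-10150 changed 60 of the 82 in zQ175 and 0 in WT (490 and 2 of all 15506 genes). The 82 genes were chosen, in the same libraries, for a large gap between the HTT-10150 and NTC effects. That choice by itself favours opposite signs, an untreated effect in between and calls between HTT-10150 and NTC within a genotype. The counts of such genes therefore describe the 82 and do not test the difference. With the untreated pair in place of the NTC pair, 0 genes were called (666 at an unadjusted p under 0.05), and 0 with the mean of both control pairs (1386 at an unadjusted p under 0.05, edgeR throughout). Leaving out single libraries moved the count between 8 (without WT HTT-10150 replicate M4) and 186 (without WT HTT-10150 replicate M2). It was 1 without the libraries high in choroid plexus genes and 0 in males alone. Library names hold a number that libraries of the same genotype and sex share across treatments (21 numbers, 5 of them with 1 library), whose meaning the labels do not give. With this number as a fixed block, 0 genes were called (1457 at an unadjusted p under 0.05, edgeR), and with it as a random block in limma-voom 147 were, against 91 in limma-voom without it.

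Klf12, a transcriptional repressor, had the smallest p in this test. It averaged 4.28 ± 0.131 CPM in zQ175 HTT-10150 and 4.99 ± 0.664 CPM in WT HTT-10150, against 6.05 ± 0.593 CPM in zQ175 NTC and 3.99 ± 0.645 CPM in WT NTC. The difference was -0.82 ± 0.13 on the log2 scale (adjusted p = 0.00194, edgeR). Prex2, an exchange factor for the GTPase Rac, was lower by -0.54 ± 0.06 under HTT-10150 and by -0.12 ± 0.06 under NTC, where it did not pass, with a difference of -0.42 ± 0.08 (adjusted p = 0.0116, edgeR). Tmod2, a neuronal cap of actin filaments, Xpr1, a phosphate exporter, and Megf9, a membrane protein of neurons, had differences of -0.22, -0.21 and -0.22. Of these, Tmod2 averaged 359.6 ± 11.4 CPM in zQ175 HTT-10150 and 427.6 ± 14.1 CPM in WT HTT-10150, without overlap.

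In the other direction, Snrnp70, a protein of the spliceosomal U1 particle, averaged 202.1 ± 16.1 CPM in zQ175 HTT-10150 and 177.4 ± 14.1 CPM in WT HTT-10150. Under NTC it averaged 181.1 ± 7.24 CPM in zQ175 NTC and 191.5 ± 6.98 CPM in WT NTC, and the difference was 0.28 ± 0.06 (adjusted p = 0.0257, edgeR). Thbs3, a thrombospondin of the extracellular matrix, had a difference of 0.74 ± 0.14, Ttc13 of 0.33 ± 0.06 and the noncoding gene Gm14827 of 0.97 ± 0.18 (adjusted p = 0.0116 each, edgeR). Tagln, an actin-binding protein of smooth muscle, had -0.09 ± 0.08 under HTT-10150 and -0.65 under NTC, a difference of 0.56 ± 0.12. Tagln, the potassium channel gene Kcnma1 (-0.41 ± 0.09) and the NMDA receptor gene Grin2a (-0.62 ± 0.15) were the only members of the 33 lists among the 82, and the last 2 were named after their values were seen.

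The genes in this difference had unusual length and base composition. The 46 genes lower under HTT-10150 had a median transcript length of 6452 bases and 44.5% GC, and the 36 higher ones 3997 bases and 55.2% GC, against 3366 bases and 49.7% GC over all genes tested. A library's gene levels can lean with transcript length, which was measured as the slope of its log2 CPM, less each gene's mean over libraries, per SD of log2 transcript length over 13147 genes. The slope was -0.025 ± 0.024 in zQ175 HTT-10150 (SD, n = 8) and -0.0056 ± 0.017 in WT HTT-10150 (SD, n = 7; exact permutation p = 0.0917, 0.214 adjusted over 12 tests). In zQ175 NTC it was 0.012 ± 0.018, which differed from zQ175 HTT-10150 (exact permutation p = 0.00451, adjusted p = 0.018, n = 8 each). The GC slope, defined likewise, was -0.013 ± 0.013 in zQ175 NTC and 0.013 ± 0.024 in WT NTC (exact permutation p = 0.0129, adjusted p = 0.0387, n = 8 each). With both slopes as covariates, 8 genes were called in the difference, while 5737 were called between zQ175 HTT-10150 and WT HTT-10150. The part of RNA quality in the slopes was not tested.

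**Figure D4:**
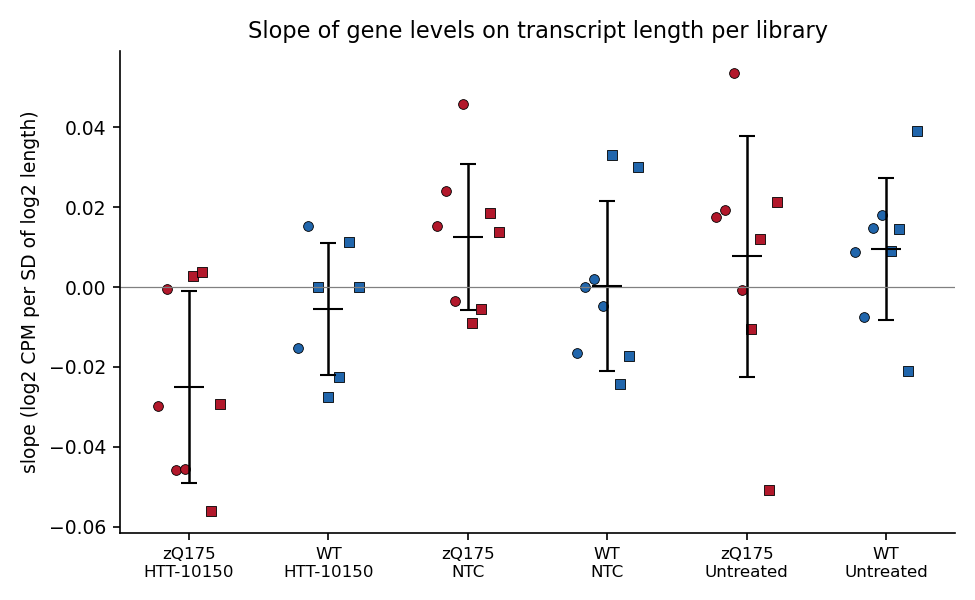
Slope of gene levels on transcript length (log2 CPM per SD of log2 length) in each library of the 6 groups (circles female, squares male, bar and whiskers mean and SD; red zQ175, blue WT). zQ175 HTT-10150 libraries average -0.025 and zQ175 NTC libraries 0.012.

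**Figure D5:**
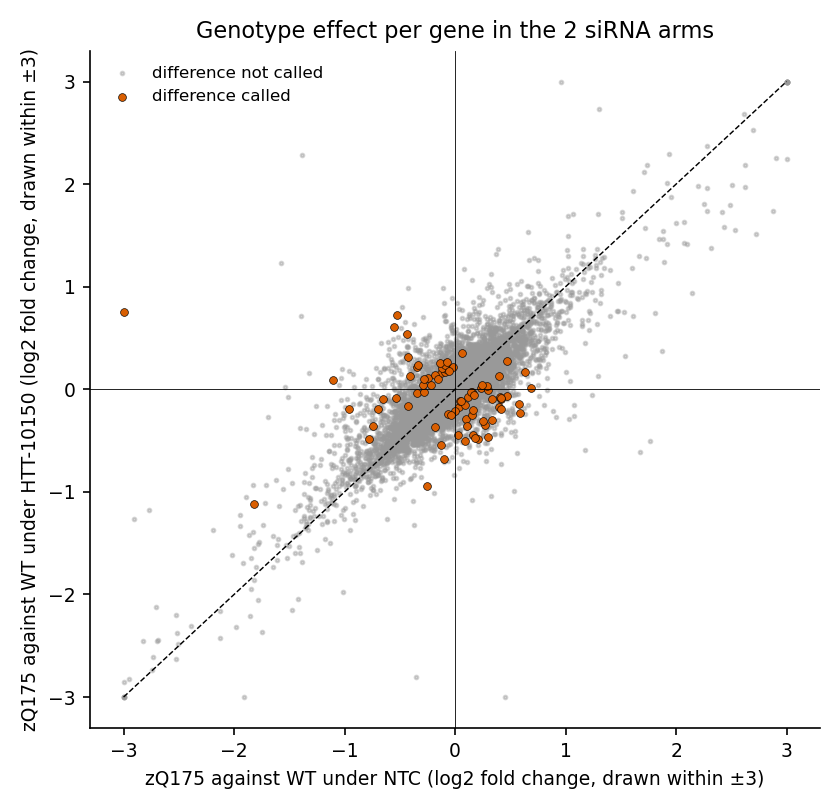
Log2 fold change of zQ175 against WT for each of 15506 genes under HTT-10150 (vertical) and under NTC (horizontal), 2 sets of animals with none in common; the dashed line marks equal effects and 22 genes past 3 are drawn at the edge. Most genes lie along the line, and the 82 genes called in the difference (orange) lie mostly at small effects beside it.

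Against the lowered Htt of WT HTT-10150 can be set WT animals with their full level. Between zQ175 HTT-10150 and WT NTC, 5946 genes were called, 2925 higher and 3021 lower, close to the 5608 found with WT HTT-10150. HTT-10150 against NTC changed 490 genes in zQ175, 170 higher and 320 lower. In WT it changed 2 genes, 1 higher and 1 lower, with 812 at an unadjusted p under 0.05 (edgeR). These counts were not rerun under the alternatives, and the length slopes of the zQ175 HTT-10150 and zQ175 NTC libraries differed, as given above. Whether the effect of HTT-10150 differs between the genotypes is the same test as the difference above, with its 82 genes. These comparisons share the zQ175 HTT-10150 or the WT NTC libraries with others above and add no independent evidence.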

How the data were processed

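Polyadenylated RNA of the striatum was sequenced. The authors counted reads with RSEM on GRCm38, per the submitters' processing notes, and deposited a table of expected counts per gene, estimates that can be fractional. The sources used here name no version, aligner, strand setting or annotation. A second deposited table was not used. Of 41135 entries, 41128 name a mouse gene; the other 7 (6 constructs and a mutant form of Htt) held 5.91e-06% of counts and were left out of all totals and fits. Rounding to whole numbers came first, and 78.4% of the nonzero values were already whole. No 2 libraries were identical.

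The 47 libraries of the schedule (6 groups) were fitted together with edgeR 4.0.16 in R 4.3.3: filterByExpr by group, TMM scaling, robust dispersions, sex as a term, the quasi-likelihood F test, and Benjamini-Hochberg adjustment over 15506 genes, with calls at an adjusted p under 0.05. The standard error is the log2 fold change over the square root of F. Levels are TMM-scaled CPM, and log2 CPM used a prior count of 2. Single values were compared by exact permutation (scipy 1.17.1). Intervals and floors cover counting error only. The genes named by rule are Htt, the 12 largest rises and 12 largest falls among called genes that average over 1 in log2 CPM and move alike in females and males, 5 in each direction of the difference with the smallest p, up to 4 members of each list with at least 2 called, and 10 genes set by name (the receptors Adora2a, Drd1 and Drd2, the precursors Tac1, Pdyn and Penk, the signalling genes Ppp1r1b and Pde10a, and the glial genes Aif1 and Gfap); not all are printed. Members and lists (33 lists, 565 of 568 symbols matched) were chosen with earlier results of these data known. Positions are GENCODE M21 on GRCm38. Alternatives were DESeq2 1.42.0, RLE size factors, no filter, only the groups compared, all 143 libraries, no sex term, males only, the replicate number as a block, length and GC slopes, other control pairs, other genes for the score, and leaving out each library; leaving out libraries over 500 CPM of choroid plexus genes was chosen after seeing the data, as were limma-voom (limma 3.58.1) with and without the number that libraries share in their names as a random block, and that number as a fixed block in edgeR. Replicate numbers come from the labels within sex, and nothing says that they mark shared litters or days. A few of these genes are not reported here.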

Additional observations from a re-analysis of the deposited data

Results flagged for a closer look

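In 190 groups of values examined, a library stood far from the rest of its group in 19. Chance alone gives about 1 in 20 groups where the groups are independent. These groups share the same 15 libraries, so the 19 cannot be tested against that rate. Among zQ175 HTT-10150 libraries, replicate F4 held 248.7 CPM of Tac1 (174.6 to 207.3 in the others), 144.9 CPM of Homer1 (115.3 to 124.1), 46.53 CPM of Mlh3 (38.0 to 42.0), 53.35 CPM of Cx3cr1 (58.1 to 61.6) and 387.4 CPM of Sort1 (411.3 to 431.9). Replicate F3 of zQ175 HTT-10150 held 7.412 CPM of Ddit4l (5.06 to 6.05), 1286 CPM of Glul (1035 to 1123) and 1775 CPM of Mobp (1175 to 1382). Replicate F2 of zQ175 HTT-10150 held 8.161 CPM of Abhd1 (5.398 to 6.359).

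Among WT HTT-10150 libraries, replicate F1 held 2.689 CPM of Kazald1 (1.36 to 1.83 in the others), 257.6 CPM of Drd1 (290.3 to 302.4) and 166.0 CPM of Tac1 (191.9 to 211.1). Replicate M2 of WT HTT-10150 held 13.65 CPM of Slc4a11 (7.56 to 9.06) and 448.3 CPM of Ntrk2 (509.4 to 555.7). Replicate M3 of WT HTT-10150 held 7.262 CPM of Phex (3.87 to 4.84) and 28.89 CPM of Pdgfrb (24.0 to 25.9), and replicate M5 held 32.08 CPM of Mlh3 (35.4 to 37.9). The summed choroid plexus genes reached 2684 CPM in zQ175 HTT-10150 replicate M1 (58.8 to 1056 in the others) and 701.9 CPM in WT HTT-10150 replicate F1 (58.6 to 132.1).

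The genotype effect under HTT-10150 minus that under NTC, on the log2 scale, differed by edgeR's test for 12 of the genes named. It was positive for Gm14827 (0.97), Thbs3 (0.74), Tagln (0.56), Ttc13 (0.33) and Snrnp70 (0.28). It was negative for Klf12 (-0.82), Grin2a (-0.62), Prex2 (-0.42), Kcnma1 (-0.41), Megf9 (-0.22), Tmod2 (-0.22) and Xpr1 (-0.21). Grin2a and Kcnma1 were named after their values were seen, and the others for the smallest p in this same test. With the untreated pair in place of the NTC pair, 0 genes were called. In males alone 0 were called, and 1 without the libraries high in choroid plexus genes.

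The table also holds an entry for a mutant form of Htt. It had counts in each of the 8 zQ175 HTT-10150 libraries (1.04 to 4.50 counts) and 0 counts in all 7 WT HTT-10150 libraries. Per 10 M counts it averaged 0.987 ± 0.636 in zQ175 HTT-10150 and 1.53 ± 0.623 in zQ175 NTC (SD, n = 8 each; exact permutation p = 0.107, 0.214 adjusted over 12 tests). At so few counts the test does not settle whether the entry differed, and the size of change it could detect was not computed.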

How the results depend on the processing

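The count of genes called between zQ175 HTT-10150 and WT HTT-10150 moved by less than 1.5 times under the alternatives run. The 5608 genes called were 3803 in males alone and at most 5737 in any other alternative, and 5137 to 5512 when single libraries were left out. Of 130 named genes that passed, 122 passed in every alternative other than males alone. Most of these genes were named for large changes or small p in the main fit, so the 122 do not speak for all 5608. In males alone Tac1, which did not pass, turned to -0.032, and the counts fell to 3834 under NTC, 3111 without treatment and 3503 between zQ175 HTT-10150 and WT NTC. On its own scale the score of genes with an untreated change over 0.5 gave a distance of 1.55, or 94.8% of that under NTC, and that of genes called in untreated animals of another schedule 0.60, or 97.4%. In males alone 29 of 143 results for named genes no longer passed.

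The 82 genes of the difference between the pairs depended on the setting. They became 221 with DESeq2, 27 without the filter on low counts, 27 with all 143 libraries, 54 without a sex term, 0 in males alone, 8 with length and GC slopes, 0 against the untreated pair, 0 against the mean of both control pairs, and 1 without libraries high in choroid plexus genes (chosen after seeing the data). Also added after seeing the data, the number shared in library names gave 0 as a fixed block and 147 as a random block in limma-voom, where 91 were called without it. As a random block it left 5546 calls between zQ175 HTT-10150 and WT HTT-10150, at a consensus correlation of 0.0822. Leaving out 1 library gave 8 to 186, and 18 of 31 libraries moved it by over 1.5 times. Without single WT HTT-10150 libraries it was 8 (M4), 10 (M5), 11 (F2) and 186 (M2), and without single zQ175 HTT-10150 libraries 36 (M1), 46 (M3) and 49 (F1). Without single zQ175 NTC libraries it was 32 (M4), 35 (M1), 37 (F1), 40 (F4) and 50 (F2), and without single WT NTC libraries 12 (M2), 29 (F1), 38 (F2), 41 (F3), 139 (M4) and 157 (M3). The cause was not tested.

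Whether replicate numbers pair the libraries was not settled. Over 6 pairs under HTT-10150, correlations of deviations from the mean of group and sex ran from -0.0997 to 0.319. In 3 of 6 the zQ175 library correlated best with its own number, and under NTC in 1 of 8. WT HTT-10150 has 2 females, so the deviations of its F1 and F2 mirror each other. With a replicate block the genotype effect had 5389 calls, the difference 44, and Htt a log2 fold change of -0.15 (adjusted p = 0.0411, edgeR). Leaving out single libraries moved Htt between -0.14 and -0.07 (adjusted p = 0.0583 to 0.392, edgeR).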

Other observations

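Genes beside Htt were examined on their own. Within 5 Mb of Htt, 52 genes were called between zQ175 HTT-10150 and WT HTT-10150, which is 46.02% of those tested there. Over whole chromosomes the share ran from 33.3% on chromosome 16 to 40.6% on the X chromosome, and it was 36.3% on chromosome 5. These shares are descriptions, with no test.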
